A study of Homo sapiens with 6 samples.

Results

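SHISA2 and 9 genes of the SHISA family and the fibroblast growth factor (FGF) receptor axis were followed in MDA-MB-436 cells with and without induction of a MUC1 shRNA. The genes were SHISA2, SHISA4 and SHISA5, the receptors FGFR1, FGFR2, FGFR3 and FGFR4, the ligands FGF2 and FGF5, and the FGF carrier FGFBP1, which are 10 of the 37887 genes in the count table. They were chosen by name around SHISA2, which itself was picked on its large difference between these same libraries. Their differences between the groups are therefore given as a description, with no p-value, and where the text says on which side of the threshold of the fit across all genes one of them lay, that too is a description and supports nothing.

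MDA-MB-436 is an established cell line from a triple-negative breast cancer with mutant BRCA1. All cells, controls included, stably carried a tetracycline-inducible MUC1 shRNA vector and had been selected with puromycin. The control group had 0.1% DMSO as vehicle and the shMUC1 group had 500 ng/ml doxycycline, with 3 libraries each, and the time of treatment is not given in the sources used here. Sample titles call the controls control shRNA, but their treatment label and the design text give vehicle in the inducible line, and that reading was used here. Doxycycline and silencing of MUC1 cannot be told apart in this design.

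Library totals ran from 18678307 to 27825546 counts. MUC1, the silenced gene, fell from 3.88 ± 0.401 CPM in control to 2.14 ± 0.412 CPM in shMUC1 libraries (SD, n = 3 each, CPM being per-million counts after scaling for library size). This was -0.84 on the log2 scale (SE 0.214), and the quasi-likelihood test of edgeR gave an adjusted p of 0.00119. Mesenchymal breast line markers summed to 3790 to 3850 CPM in control and 3460 to 3520 CPM in shMUC1 libraries, with CDH11 at 6 counts or fewer throughout. CD44 (1710 and 1530 CPM) and FN1 (962 and 1280 CPM) made up most of that sum, and they moved in opposite directions. FN1 rose (log2 fold change 0.42), whereas VIM (-0.78), AXL (-0.63), CD44 (-0.16), ZEB1 (-0.97) and SPARC (-1.97) fell. Of the hormone receptors and ERBB2, ESR1 and PGR had at most 12 counts in any library. ERBB2 averaged 44.7 CPM in control and 38.9 CPM in shMUC1 libraries (log2 fold change -0.2, edgeR adjusted p = 0.0074). A list of 11 luminal and epithelial markers summed to 549 to 586 CPM in control and 1110 to 1150 CPM in shMUC1 libraries. In that list GRHL2 was at 0 in all libraries, and CLDN7 had at most 5 counts in any library. KRT19 and RAB25 had at most 4 counts in control and 0 in shMUC1 libraries. KRT8 (426 and 824 CPM) and KRT18 (131 and 266 CPM) made up nearly all of that sum. EPCAM, CDH1 and ELF3 also rose, whereas CLDN3 (log2 fold change -1.31, edgeR adjusted p = 1.07e-05) and CLDN4 (-0.70, edgeR adjusted p = 0.0298) fell. The 5 leukocyte markers summed to 0.41 to 0.615 CPM in control and 1.02 to 1.63 CPM in shMUC1 libraries, with CD3E at 0. The 4 endothelial markers summed to 4.49 to 5.0 CPM in control and 1.34 to 2.06 CPM in shMUC1 libraries, and PECAM1 and KDR fell. CDH1 was over the minimum of the filter on low counts in 1 control and 3 shMUC1 libraries. PECAM1 was over it in 3 control and 2 shMUC1 libraries, and SPARC in 3 control and 1 shMUC1 library. In bulk RNA, fewer cells of a type and less RNA per cell cannot be told apart, and the part of these markers in the differences below was not tested.

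FGF ligands are secreted proteins that bind FGF receptors together with heparan sulfate, and the receptors are tyrosine kinases that signal through the adaptor FRS2 to the RAS-ERK, PI3K and PLCγ pathways. Shisa was first described in frog embryos, where it holds immature FGF and Frizzled receptors in the endoplasmic reticulum and so dampens FGF and WNT signaling. In breast cancers, FGFR1 is known as a recurrently amplified receptor gene.

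SHISA2, the gene around which the set was built and which was picked on its difference, was lower in shMUC1 libraries. It had 427, 390 and 380 counts in control and 106, 108 and 57 counts in shMUC1 libraries. Scaled for library size, these were 19.5, 16.0 and 14.7 CPM in control and 3.83, 4.19 and 3.06 CPM in shMUC1 libraries. Every shMUC1 library lay far below every control library, and the spread within each group was small beside the gap. The mean was 16.7 ± 2.46 CPM in control and 3.69 ± 0.577 CPM in shMUC1 libraries (SD, n = 3 each). The log2 fold change was -2.16 (SE 0.135), or 4.46-fold lower. SHISA2 encodes a single-pass membrane protein and lies on the minus strand of chr13:26044597-26051031 (GRCh38), with 1 annotated transcript in GENCODE release 29 and no exon shared with another gene.

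SHISA4 (chr1:201888680-201892306) was also lower, at 11.8, 10.1 and 13.2 CPM in control and 9.51, 8.19 and 6.66 CPM in shMUC1 libraries. The groups did not overlap, but the highest shMUC1 library stood close to the lowest control library. The log2 fold change was -0.51 (SE 0.128). SHISA5 (chr3:48467798-48504826), also called Scotin, a p53-inducible protein of the endoplasmic reticulum with a role in apoptosis, differed in the other direction. It had 186, 177 and 179 CPM in control and 202, 213 and 203 CPM in shMUC1 libraries, a log2 fold change of 0.19 (SE 0.0364). That is a small difference in an abundant transcript whose libraries lay close together within each group.

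**Figure D1:**
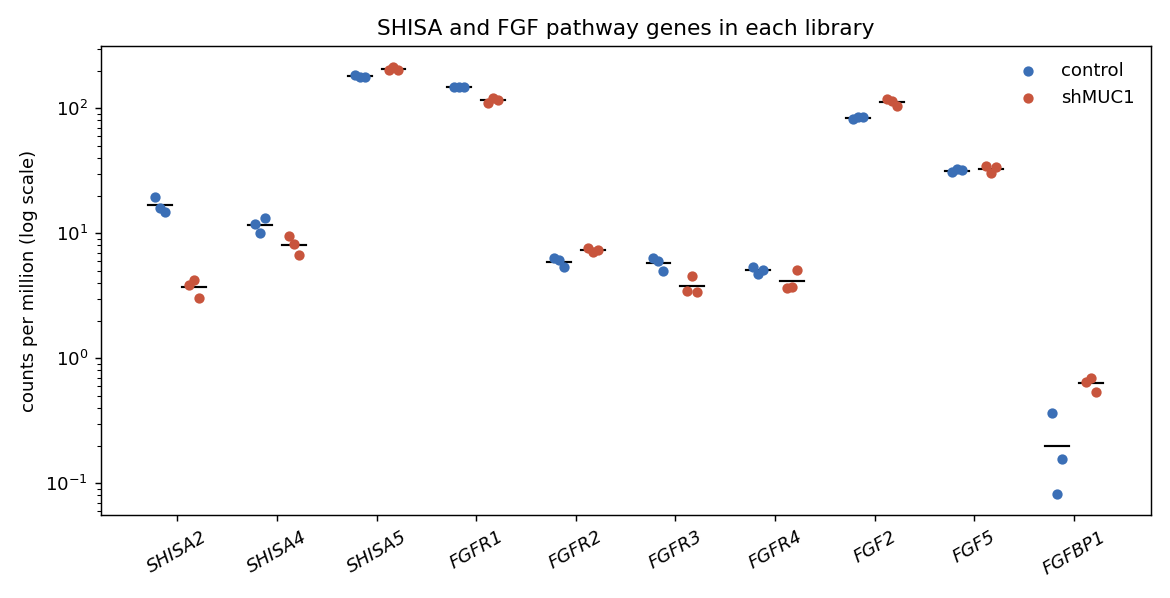
CPM (log axis) of the 10 genes in each of 3 control and 3 shMUC1 libraries; points are libraries and black lines are group means. SHISA2 falls from a mean of 16.7 to 3.69 CPM, whereas the FGF5 and FGFR4 points of the groups overlap.

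A further 2 members of the SHISA family passed the filter on low counts, and both fell. SHISAL1 had 1580, 1828 and 1801 counts in control and 554, 547 and 358 counts in shMUC1 libraries. Its mean was 72.2 ± 2.66 CPM in control and 20.2 ± 1.0 CPM in shMUC1 libraries (SD, n = 3 each; log2 fold change -1.84, SE 0.0625, edgeR adjusted p = 5.71e-24). SHISA3, known as a WNT pathway antagonist that acts on Frizzled and FGF receptors, had 150, 172 and 166 counts in control and 86, 86 and 56 in shMUC1 libraries (log2 fold change -1.10, SE 0.161, edgeR adjusted p = 4.28e-07). Neither gene shares an exon with another gene. Of the other SHISA genes, SHISA6 had 0 counts in all 6 libraries, and SHISA7, SHISA8, SHISA9, SHISAL2A and SHISAL2B had at most 6 counts in any library. SHISA7 had 2, 4 and 2 counts in control and SHISA8 had 4, 2 and 4, and both had 0 in shMUC1 libraries. A count of 0 allows up to 0.161 CPM in the shallowest library, counting error only, so changes in these genes could not be judged at this depth. This limit takes each count as independent. Most low counts were even in every library, so the limit may be too low. Of the 5 SHISA family genes that passed the filter on low counts, SHISA2, SHISA3, SHISA4 and SHISAL1 were lower and SHISA5 was higher. Of all genes tested, 23.6% were lower and 25.2% were higher. SHISA2 was picked on its fall, so this tally is a description.

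FGFR1 was the most abundant of the FGFR1 to FGFR4 transcripts, both in CPM and per length. It had 147, 149 and 147 CPM in control and 111, 121 and 117 CPM in shMUC1 libraries, 2 tight groups that did not overlap. The log2 fold change was -0.34 (SE 0.0400), a 1.27-fold lower level. FGFR1 lies on chr8:38400215-38468834 (GRCh38) and shares 138 exon bases on the opposite strand with LETM2 and 156 with the antisense gene AC087623.1. LETM2 itself rose from 4.35 ± 0.160 to 14.5 ± 0.932 CPM (SD, n = 3 each; edgeR adjusted p = 1.54e-14). The sources used here do not say whether counting used strand, so reads of FGFR1 and its antisense neighbors cannot be told apart in the shared bases.

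FGFR2, FGFR3 and FGFR4 had at most 7.59 CPM in any library, and they did not differ in one direction. FGFR2 (chr10:121478334-121598458), the receptor best known from epithelia, had 6.29, 6.07 and 5.34 CPM in control and 7.59, 7.14 and 7.30 CPM in shMUC1 libraries. All shMUC1 libraries were higher (log2 fold change 0.32, SE 0.137), but the gene did not pass the threshold of the fit across all genes. FGFR3 (chr4:1793293-1808872) had 6.29, 6.03 and 5.03 CPM in control and 3.47, 4.58 and 3.38 CPM in shMUC1 libraries. All shMUC1 libraries were lower, and the log2 fold change was -0.59 (SE 0.170). FGFR4 (chr5:177086886-177098144) had 5.42, 4.68 and 5.07 CPM in control and 3.65, 3.69 and 5.05 CPM in shMUC1 libraries. Here the groups overlapped, since shMUC1 replicate 3 stood at the level of control, and the log2 fold change was -0.31 (SE 0.172). Without that library it was -0.46 and passed the threshold. Counts per gene do not tell apart the IIIb and IIIc splice forms, which set the ligands that FGFR1, FGFR2 and FGFR3 bind.

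Compared per length, as CPM per kilobase of exon (RPKM, over all exons of a gene joined), FGFR1 made up 78.0% ± 1.27 (SD, n = 3) of the summed level of FGFR1 to FGFR4 in control and 76.3% ± 0.561 in shMUC1 libraries. The summed level itself was 13.7 ± 0.275 RPKM in control and 11 ± 0.459 RPKM in shMUC1 libraries (SD, n = 3 each). FGFR2 held 5.97%, 5.80% and 5.26% in control and 9.52%, 8.25% and 8.65% in shMUC1 libraries. Its share was thus higher in every shMUC1 library, while the ranges of FGFR1, FGFR3 and FGFR4 shares overlapped between the groups. FGFR3 held 8.70% ± 0.835 and 7.11% ± 1.04, and FGFR4 held 7.64% ± 0.558 and 7.75% ± 1.43 (SD, n = 3 each, control and shMUC1). With the length of the longest coding transcript in place of all exons, a choice made after seeing the data, FGFR1 held 84.8% in control and 82.9% in shMUC1 libraries.

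**Figure D2:**
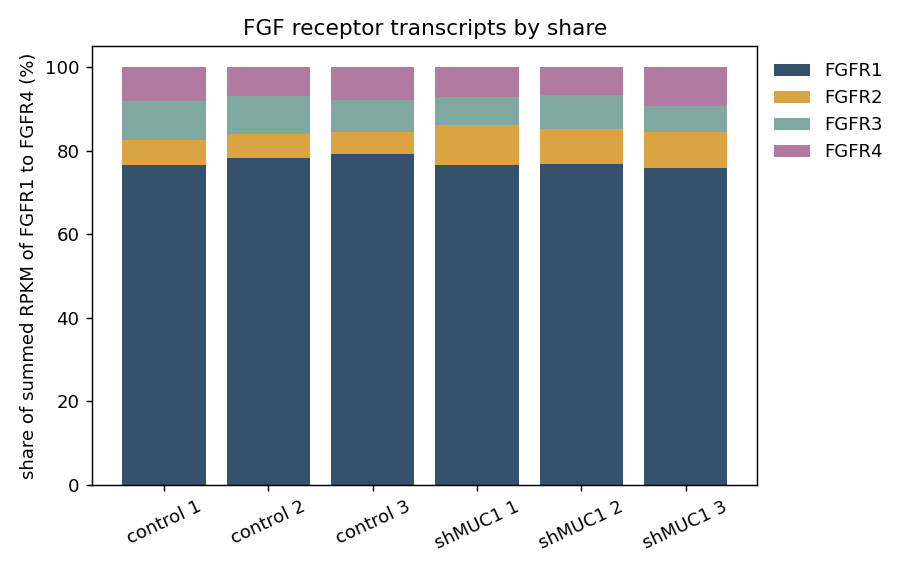
Share (%) of each receptor in the summed RPKM of FGFR1 to FGFR4, with 1 stacked bar per library. FGFR1 makes up 75.7% to 79.1% of every bar, and the FGFR2 segment is larger in each shMUC1 bar (8.25% to 9.52%) than in each control bar (5.26% to 5.97%).

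FGF2, the basic FGF that binds heparan sulfate and activates FGFR1, was the most abundant ligand transcript. It had 81.9, 85.1 and 85.1 CPM in control and 118, 115 and 105 CPM in shMUC1 libraries. All shMUC1 libraries lay above all control libraries, with a log2 fold change of 0.43 (SE 0.0450) or a 1.34-fold higher level. FGF2 (chr4:122826708-122898236) shares 804 exon bases with NUDT6 on the opposite strand. NUDT6 had 18 to 41 counts per library against 1798 to 3250 for FGF2, and NUDT6 did not pass the test (log2 fold change -0.12).

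FGF5 (chr4:80266599-80336680), a ligand known for ending the growth phase of hair, had 30.8, 32.4 and 31.8 CPM in control and 34.3, 30.5 and 33.8 CPM in shMUC1 libraries. The groups overlapped, and the log2 fold change was 0.05 (SE 0.0694). FGF5 shares 136 exon bases on the same strand with CFAP299, which had at most 10 counts per library.

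FGFBP1 (chr4:15935569-15938740), which releases FGF2 from heparan sulfate in the matrix, was barely expressed, with 8, 2 and 4 counts in control and 18, 18 and 10 counts in shMUC1 libraries. The level was 0.200 ± 0.147 CPM in control and 0.629 ± 0.0829 CPM in shMUC1 libraries (SD, n = 3 each), and the log2 fold change was 1.67 (SE 0.564). FGFBP1 passed the filter on low counts in none of the control and all of the shMUC1 libraries, so among genes that passed in this way a higher level in shMUC1 was bound to appear. Its estimate rested on single libraries: the log2 fold change was 2.36 without control replicate 1, and it no longer passed the threshold without control replicate 2 (1.30), control replicate 3 (1.51) or shMUC1 replicate 2 (1.59).

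Among the other secreted FGFs, 2 of 16 passed the filter. FGF1, which binds all FGF receptors, rose from 2.96 CPM in control to 4.21 CPM in shMUC1 libraries (log2 fold change 0.49, SE 0.195, edgeR adjusted p = 0.0347), but the call was lost with DESeq2, with limma-voom and without any 1 of control replicates 1 and 2 or shMUC1 replicates 2 and 3. FGF18 had 10, 34 and 30 counts in control and 8, 4 and 2 counts in shMUC1 libraries (log2 fold change -2.37, SE 0.534, edgeR adjusted p = 0.000327). It passed the filter through the control libraries alone, so only a lower level could appear. Another 7 ligands had 0 counts in all libraries and the rest at most 6 counts in any library.

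All 10 genes passed the filter, FGFBP1 through the shMUC1 libraries alone. At an adjusted p under 0.05 in the fit across all genes, 3 of the 10 were higher (SHISA5, FGF2 and FGFBP1), where 25.2% of the 15355 genes tested were higher, and 4 were lower (SHISA2, SHISA4, FGFR1 and FGFR3), where 23.6% were lower. Past a 2-fold change as well, 1 was higher (FGFBP1; 2.21% of all genes) and 1 was lower (SHISA2; 3.74% of all genes). The CPM ranges of the groups were apart for 8 of the 10, as for 54.8% of all genes tested. These counts describe genes picked with this contrast in view. The median log2 fold change was -0.13 over the 10 genes and 0.00058 over all genes tested.

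**Figure D3:**
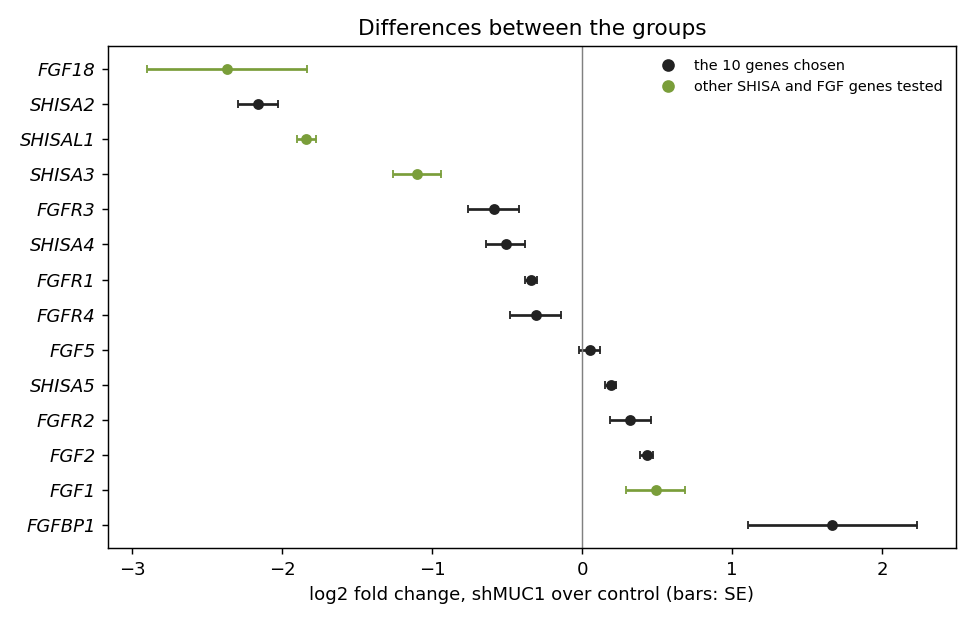
Log2 fold change, shMUC1 over control, with SE bars for the 10 genes (black) and the other SHISA and FGF genes tested (green). FGF18 (-2.37), SHISA2 (-2.16), SHISAL1 (-1.84) and SHISA3 (-1.10) lie farthest to the left, and FGFBP1 (1.67) with its wide bar lies farthest to the right.

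Levels of the 10 genes in control spanned from 38.7 ± 1.03 RPKM for SHISA5 to 0.148 ± 0.108 RPKM for FGFBP1 (SD, n = 3 each). In between, FGF2 stood at 12.4 ± 0.272, FGFR1 at 10.7 ± 0.102, SHISA4 at 6.70 ± 0.880, SHISA2 at 5.85 ± 0.860 and FGF5 at 5.28 ± 0.138 RPKM. SHISA4, SHISA2 and FGF5 followed each other with overlapping ranges, as did FGFR3 (1.19 ± 0.137 RPKM) and FGFR4 (1.05 ± 0.0774 RPKM). FGFR2 came next at 0.779 ± 0.0657 RPKM. In shMUC1 libraries SHISA2 was at 1.29 ± 0.202 RPKM (SD, n = 3), below SHISA4 at 4.65 ± 0.817 and FGF5 at 5.48 ± 0.345 RPKM. The order depends on the length used: per longest coding transcript, FGFR1 stood above FGF2 in control (23.8 ± 0.227 against 12.4 ± 0.272 RPKM).

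The genes most like SHISA2 across the 6 libraries, by the smallest Euclidean distance between log2 CPM values centered on each gene's mean, were SNORD13, SHISAL1, LRIG1, ZEB2 and TP53INP1. The distances were 0.478, 0.534, 0.548, 0.562 and 0.571 among 11127 other genes averaging 100 counts or more. Their log2 fold changes were -2.15, -1.84, -1.78, -1.83 and -1.97, and with 6 libraries in 2 groups the distance mostly reflects the difference between the groups. SNORD13, LRIG1 and ZEB2 share exon sequence with genes on the opposite strand.

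A 7-base word, ATCAGTA, was looked for in annotated 3' UTRs. The word was picked from an earlier analysis of these same libraries, so its values are a description. It was in at least 1 annotated 3' UTR of 1873 of 13023 tested genes (14.4%), on the transcript strand only, and their median log2 fold change was -0.11 against 0.028 for the others. Of the 10 genes, SHISA2 and FGF5 hold it, once each, as shown here 5′ to 3′ with the word in capitals and 11 bases on each side.
SHISA2 site: tgtaaatgaagATCAGTAtttctgcctag
FGF5 site: tatatgtatacATCAGTAtagtgttttat
The SHISA2 word lies on the minus strand at chr13:26045221-26045227 (GRCh38), 1286 bases into a 3' UTR of 1916 bases. The FGF5 word lies at chr4:80288380-80288386, 1708 bases into a 3' UTR of 3522 bases, and is in 2 of the 3 annotated FGF5 3' UTRs. The log2 fold changes were -2.16 for SHISA2 and 0.05 for FGF5. Among the 453 genes with a 3' UTR that were lower past 2-fold, 109 hold the word (24.1%, against 14.4% of all). Of the 77 other pathway genes tested, 16 hold it, of which 7 fell (FGF12, FLRT2, NCAM1, GPC4, PLCG1, SPRED1 and PHLDA1) and SOS2 and CRKL rose. Beside these stand all 1873 tested genes with the word, of which 789 fell. Of all 15355 genes tested, with the word or without, 23.6% fell and 25.2% rose. MUC1 holds the word, and SHISAL1 and SHISA3, which also fell, do not. The counts of genes with the word do not take 3' UTR length into account. The part of the word in any of these differences was not tested.

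Besides the 10 genes, 103 other genes of the pathway were examined, the SHISA and FGF genes above included, of which 77 passed the filter. At an adjusted p under 0.05 by edgeR, 16 of the 77 were higher (20.8%) and 35 were lower (45.5%), beside 25.2% and 23.6% of all genes tested. Their median log2 fold change was -0.13. None was higher past 2-fold, beside 2.21% of all genes tested. Lower past 2-fold were 7, beside 3.74% of all genes tested: SHISAL1, SHISA3, FGF18, NCAM1, GPC2, EGR1 and FZD2. Of the 77, FGF18 passed the filter through the control libraries alone, so for FGF18 a lower level was bound to appear. GPC2 was over the minimum of the filter in 3 control and 2 shMUC1 libraries, and SPRY1 in 2 control and 3 shMUC1 libraries. Of the genes named below, NCAM1, GPC6, PLCG1, SHC1, BRAF, FGF14, FGFBP3, DUSP6, ETV4, ETV5, CCND1, IER3, PHLDA1, FZD4, FZD6 and FZD8 share exon bases with another annotated gene, so their counts are less certain.

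Heparan sulfate proteoglycans, which present FGFs to their receptors, were mostly lower. Of 12 tested, 9 fell (75.0%, beside 23.6% of all genes tested) and 1 rose (8.33%, beside 25.2%). The median log2 fold change was -0.23. GPC4, a glypican anchored in the membrane, fell by 0.48 on the log2 scale (edgeR adjusted p = 4.31e-06), and GPC6 fell by 0.33 (edgeR adjusted p = 3.75e-07). The syndecan SDC4 was the one that rose, from 215 ± 5.86 to 308 ± 4.55 CPM (SD, n = 3 each; log2 fold change 0.51, edgeR adjusted p = 1.39e-15). SDC2 and GPC5 did not pass, with log2 fold changes of -0.05 and 0.22.

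Among FGF binding proteins and co-receptors, 7 of 10 were tested, with 3 lower (42.9%) and 1 higher (14.3%). Of all genes tested, 23.6% were lower and 25.2% were higher. NCAM1, a cell adhesion molecule that binds FGFR1, had 43.6 ± 1.96 CPM in control and 16.8 ± 0.739 CPM in shMUC1 libraries (SD, n = 3 each; log2 fold change -1.37, edgeR adjusted p = 4.21e-18). FLRT2 and FLRT3 are membrane proteins that interact with FGF receptors, and they moved in opposite directions. FLRT2 fell (log2 fold change -0.42, SE 0.0365, edgeR adjusted p = 3.81e-12), and FLRT3 rose (log2 fold change 0.85, SE 0.142, edgeR adjusted p = 4.48e-06). FGFRL1, an FGF receptor that lacks the kinase domain and was more abundant than FGFR1 at 292 ± 17.4 CPM in control (SD, n = 3), fell slightly with overlapping groups (log2 fold change -0.12, edgeR adjusted p = 0.00832). KLB, FGFBP3 and ANOS1 did not pass.

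Of the intracellular FGF homologues, which act on sodium channels and do not bind FGF receptors as the secreted ligands do, FGF12 and FGF14 were tested. FGF12 averaged 6.88 CPM in control and 4.88 CPM in shMUC1 libraries, with overlapping groups (log2 fold change -0.49, edgeR adjusted p = 0.0141). The call was lost without shMUC1 replicate 1 (-0.31) or shMUC1 replicate 3 (-0.42). FGF14 did not pass, at a log2 fold change of 0.11.

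Adaptors and effectors downstream of the receptors went both ways, with 7 of 23 higher and 7 lower (30.4% each, near the 25.2% and 23.6% of all genes tested) and a median log2 fold change of 0.0087. PLCG1, the phospholipase that docks on activated FGF receptors, fell from 94.2 ± 2.81 to 53.8 ± 1.30 CPM (SD, n = 3 each; log2 fold change -0.81, edgeR adjusted p = 9.54e-17), and the adaptor SHC1 fell by 0.48 on the log2 scale (edgeR adjusted p = 2.52e-10). The docking protein GAB1 rose from 34.9 ± 1.25 to 47.1 ± 1.60 CPM (SD, n = 3 each; log2 fold change 0.43, edgeR adjusted p = 2.56e-07), and the kinase BRAF rose by 0.33 on the log2 scale (edgeR adjusted p = 4.21e-08). FRS2, the main FGF receptor adaptor, had a log2 fold change of -0.09 and did not pass.

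Feedback and target genes of FGF-ERK signaling numbered 18 tested, with 8 lower (44.4%), 4 higher (22.2%) and a median log2 fold change of -0.18. The shares over all genes tested were 23.6% lower and 25.2% higher. EGR1, an immediate early transcription factor, had 29.1, 23.9 and 21.6 CPM in control and 11.4, 13.7 and 11.7 CPM in shMUC1 libraries (log2 fold change -1.02, edgeR adjusted p = 1.24e-10). SPRED3, of a family that restrains RAS-ERK signaling, fell by 0.97 on the log2 scale (edgeR adjusted p = 1.48e-06), whereas its relative SPRED2 rose by 0.35 (edgeR adjusted p = 6.03e-09). The ERK phosphatase DUSP5 rose from 115 ± 3.33 to 165 ± 13.7 CPM (SD, n = 3 each; log2 fold change 0.53, edgeR adjusted p = 2.02e-12), and DUSP4 and ETV1 were the other genes that rose. The others that fell were PHLDA1 (log2 fold change -0.74), FOSL1 (-0.70), IL17RD (-0.56), SPRED1 (-0.33), CCND1 (-0.30) and ETV5 (-0.11). SPRY1, SPRY2, SPRY4, DUSP6, ETV4 and IER3 did not pass, with log2 fold changes of 0.73, -0.19, -0.025, -0.67, -0.10 and -0.17.

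Frizzled receptors, the WNT receptors that Shisa also holds back in frog embryos, were examined with LRP5 and LRP6. Of 11 tested, FZD2, FZD4, FZD7 and FZD8 fell, FZD1 and FZD6 rose, and FZD3, FZD5, FZD9, LRP5 and LRP6 did not pass. That is 36.4% lower and 18.2% higher, beside 23.6% and 25.2% of all genes tested. FZD2 averaged 31.2 ± 0.828 CPM in control and 13.9 ± 1.14 CPM in shMUC1 libraries (SD, n = 3 each; log2 fold change -1.16, edgeR adjusted p = 1.95e-14). FZD8 fell by 0.86 (edgeR adjusted p = 0.000321), and FZD1 and FZD6 rose by 0.29 and 0.28 on the log2 scale (edgeR adjusted p = 0.00118 and 2.85e-07). The median log2 fold change of this list was -0.23.

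**Figure D4:**
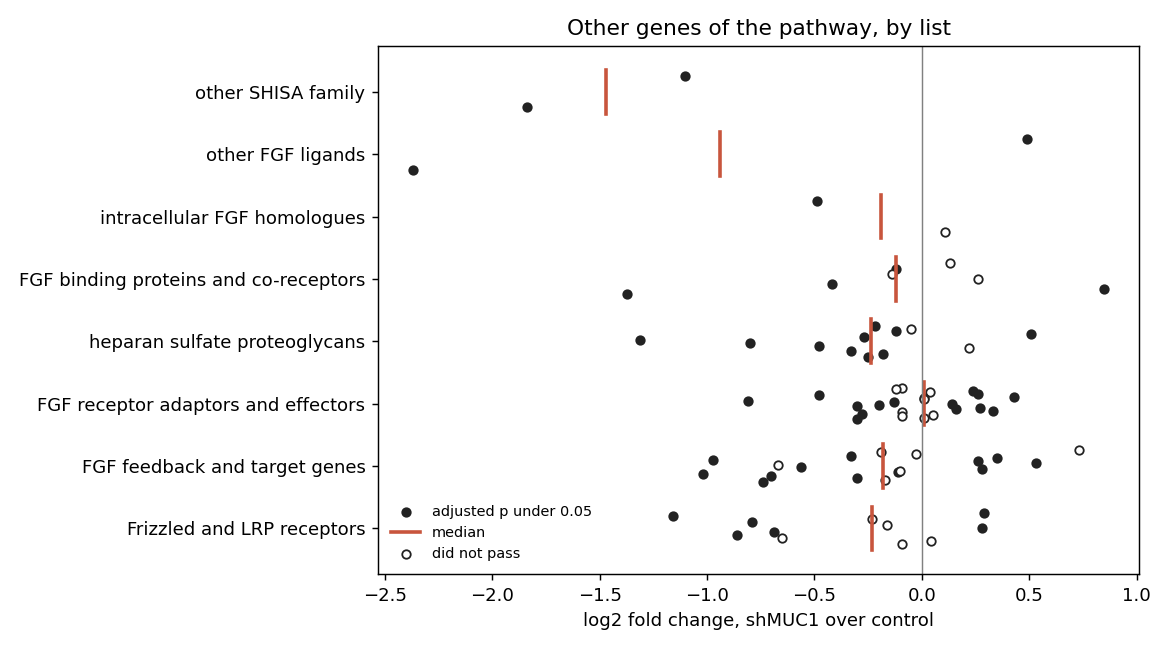
Log2 fold changes, shMUC1 over control, of the other pathway genes that passed the filter, by list; filled points passed an adjusted p under 0.05, open points did not, and red bars are medians. Most heparan sulfate proteoglycans lie left of 0 (median -0.23), while adaptors and effectors spread to both sides (median 0.0087).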

How the data were processed

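Cells were cultured in triplicate per the labels, and stranded poly(A) libraries were made from total RNA. Raw counts for each gene symbol were deposited, each library in a column of its own. The submitters' processing notes name GRCh38.p7, CASAVA 1.8.2, STAR 2.7.9a, featureCounts and DESeq2 1.24.0, and neither the annotation release nor the strand setting is given in the sources used here. Counts were tested with edgeR 4.0.16 (quasi-likelihood, TMM, filterByExpr with a minimum of 0.401 CPM in 3 libraries, group as the only term) in R 4.3.3, two-sided, with Benjamini-Hochberg adjustment over 15355 genes. SE values derive from the F statistic. The study used DESeq2, which served as an alternative (1.42.0), as did limma-voom (3.58.1), other scaling and filters, a replicate block, halved counts and each library left out. Nothing in the sources says that libraries came from separate cultures beyond "in triplicate", so p-values measure the spread between these libraries. Comparing libraries of 1 group by chi-square gave 2.79 to 5.55 per degree of freedom. From 68.8% to 70.5% of counts between 1 and 20 were even in each library. Read pairs counted as 2, which was not tested, would raise the chi-square by themselves. It therefore does not settle how far the libraries lie beyond sampling noise. Intervals and floors cover counting error only, and the floor for a gene at 0 is 3 counts, taking each count as independent.

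The 10 genes and all lists were chosen with earlier results of these data known, and list membership comes from general knowledge. The text names the 10 genes, MUC1, every SHISA and FGF ligand gene that passed the filter, the 2 largest rises and falls of each other list among called genes averaging 50 counts or more, and the 5 genes most like SHISA2. Genes named to complete a count or list (GPC2, FGFRL1, KLB, FGFBP3, ANOS1, FGF14, FRS2, DUSP4, DUSP6, ETV1, ETV4, ETV5, FOSL1, PHLDA1, IL17RD, CCND1, IER3, SPRED1, SPRY1, SPRY2, SPRY4, SOS2, CRKL, SDC2, GPC5, FZD3, FZD4, FZD5, FZD7, FZD9, LRP5 and LRP6), and LETM2, NUDT6 and single marker genes, were chosen after their values were seen. Positions, exon lengths, overlaps and 3' UTRs come from GENCODE release 29 (GRCh38), to which 98.1% of rows matched by symbol. The fits were tested on simulated data first.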

Additional observations from a re-analysis of the deposited data

How the results depend on the processing

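All values of the 10 genes kept their direction over 138 alternative values, and 134 kept their side of the threshold. The exceptions were FGFBP1, which lost its call in 3 fits without 1 library, and FGFR4, which gained one. Without control replicate 1, FGFBP1 (2.36) differed by more than SHISA2 (-2.03). SHISA2 ranged from -2.25 to -2.03 on the log2 scale, FGFR1 from -0.374 to -0.308 and FGF2 from 0.397 to 0.473. Of 320 alternative values for the 23 other genes named by rule, 312 kept direction and threshold, and the 8 that lost it were 6 of FGF1 (adjusted p from 0.06 to 0.138 in those) and 2 of FGF12. The cause of these changes was not tested. FGFBP1 and FGF18 gave no value where genes had to average 50 counts or with halved counts. MUC1 ranged from -1.02 to -0.749 and kept its call.

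Where genes had to average 50 counts, 182 were higher and 275 lower past 2-fold, against 339 and 575 in the main fit. Of the 15355 genes, 12212 were tested there, and the reason for the lower counts was not tested. The counts of other pathway genes stayed between 15 and 17 higher and between 31 and 39 lower. With the length of the longest coding transcript, chosen after seeing the data, the shares in control were 84.8% for FGFR1, 4.81% for FGFR2, 4.64% for FGFR3 and 5.77% for FGFR4. Another scaling moved the median of all genes by at most 0.022 in size (library totals only, -0.022).

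Libraries that share a number across the groups did not deviate together from their group means: the correlations of their deviations were 0.00493, -0.0324 and -0.0382. The fit with a replicate block gave -2.17 for SHISA2 and -0.858 for MUC1, and it called 3885 genes higher and 3591 lower. Depth limits FGFBP1, FGF18 and the SHISA and FGF genes that did not pass the filter most.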
